A study of Mus musculus with 4 samples.

Results

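The L1Md_A copies of long interspersed nuclear element 1 (LINE1) were examined in RNA-seq libraries of mouse embryonic stem cells (ESCs) that lack telomerase RNA and of wild-type (WT) ESCs. The members were all genomic copies whose repeat name is exactly L1Md_A, 16844 of the 3658072 copies of transposable elements (TEs) in the deposited table. Sums were taken over all of these copies, and values of single copies over the 569 that had at least 5 counts over the 4 libraries. G3 *Terc*-/- ESCs, a third-generation knockout line named F35 whose cells come from blastocysts of G2 *Terc*-/- mice, were compared with WT ESCs of the line N12, with 2 libraries of each. Both lines have the C57BL/6 background and were grown on feeder cells with leukemia inhibitory factor and serum. Each genotype was represented by 1 line, so that genotype and line cannot be told apart. The methods call the 2 libraries of a line biological replicates, without saying whether they came from separate cultures, and p-values measure only the spread between these libraries.

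LINE1 elements are autonomous retrotransposons that move through an RNA copy, which serves both as messenger for an RNA-binding protein (ORF1p) and an endonuclease with reverse transcriptase (ORF2p), and as template for the new insertion. In the mouse, the promoter of a complete element consists of repeated monomers, and the families are named after the type of monomer. The A family, like the T and Gf families, is evolutionarily young and still holds complete elements, whereas most copies of any LINE1 family are truncated at the 5′ end and lack a promoter. In ESCs such elements are held back by DNA methylation and by H3K9 methylation, and restricted further by proteins that act on their RNA.

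The libraries held between 18047995 and 22520017 gene counts and between 1805047 and 2104586 TE counts. *Terc* itself had 7 and 2 counts in WT ESCs and none in either G3 *Terc*-/- library, which allows up to 3 counts. All 10 pluripotency markers had at least 1446 counts in every library, and their summed level was 6125 and 6188 CPM (counts per 1000000 gene counts) in WT against 7758 and 8044 CPM in G3 *Terc*-/- libraries, without overlap. Members went both ways, since Nanog had 8963 and 9039 counts in WT against 19711 and 16426 in G3 *Terc*-/- libraries, whereas Dppa5a had 28970 and 29360 against 16520 and 14420. The 10 feeder fibroblast markers were detected in every library too, at a summed level between 169 and 269 CPM in WT and between 201 and 307 CPM in G3 *Terc*-/- libraries, so that the genotypes overlapped. The part of either marker list in the L1Md_A counts was not tested. Libraries of 1 genotype were further apart than sampling noise, with a chi-square per L1Md_A copy of 1.43 for WT and 1.55 for G3 *Terc*-/- ESCs. In these bulk samples, a change in the fraction of cells that express L1Md_A and a change in RNA per cell cannot be told apart. A copy is known here by its family and a running number, so that positions, lengths and sequences were not analysed here, and reads that a gene's own transcript contributes through a copy it contains were not set apart.

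L1Md_A RNA was more abundant in G3 *Terc*-/- ESCs. The family had 4482 and 4879 counts in WT libraries, against 6856 and 5910 in G3 *Terc*-/- libraries. As a level, this was 2248 ± 100.0 (SD, n = 2) CPM, here per 1000000 TE counts, in WT, against 3297 ± 32.0 (SD, n = 2) CPM in G3 *Terc*-/- ESCs. Both G3 *Terc*-/- libraries lay above both WT libraries, and the difference was over 10 times the larger SD. The log2 fold change was 0.50 (standard error, SE, 0.04; adjusted p = 3.95e-06 with Benjamini-Hochberg adjustment over 917 families in edgeR's quasi-likelihood test), a 1.42-fold difference. The family thus changed by the adjusted p-value, as 13.2% of all families did in this direction, but stayed under the 1.5-fold cutoff that the study set for retrotransposon classes, which 5.13% of the tested families passed upward. The study applied that cutoff to reads aligned to consensus sequences and tested with DESeq2, whereas counts of genomic copies were summed here. L1Md_A copies held 0.218% and 0.232% of TE counts in the WT libraries, against 0.332% and 0.327% in those of G3 *Terc*-/- ESCs (p = 0.333 by the two-sided exact permutation test over libraries, the smallest that 2 against 2 allows). Their share of the counts of all LINE1 names starting with L1 went from 3.23% ± 0.141 (SD, n = 2) for WT to 3.82% ± 0.0512 (SD, n = 2) in G3 *Terc*-/- ESCs.

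A single copy held a large part of the counts of the family and rose less than the family did. Copy 2195 of L1Md_A had 1423 and 1570 counts in WT against 1854 and 1654 in G3 *Terc*-/- libraries, and held 29.4% of all counts of the family. No other copy came near it, since the second most abundant copy of any library had at most 118 counts. Its level was 719 ± 38.8 (SD, n = 2) CPM in WT, against 907 ± 13.2 (SD, n = 2) CPM in G3 *Terc*-/- ESCs, a log2 fold change of 0.33 (SE 0.08, edgeR adjusted p = 0.0188 over all tested copies), less than that of the family. Its unadjusted p was 0.0547 without WT replicate 1 and 0.0513 without G3 *Terc*-/- replicate 1. Without copy 2195, the family had 3059 and 3309 counts in WT against 5002 and 4256 in G3 *Terc*-/- libraries. The log2 fold change of the remaining copies was 0.59 (edgeR unadjusted p = 3.32e-08), just past the cutoff of 0.585. The margin was smaller than the SE of the family estimate (0.04). Copy 2195 took 31.7% and 32.2% of the L1Md_A counts in WT but 27.0% and 28.0% in G3 *Terc*-/- libraries, so that the counts of the family were spread more widely in the latter.

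**Figure D1:**
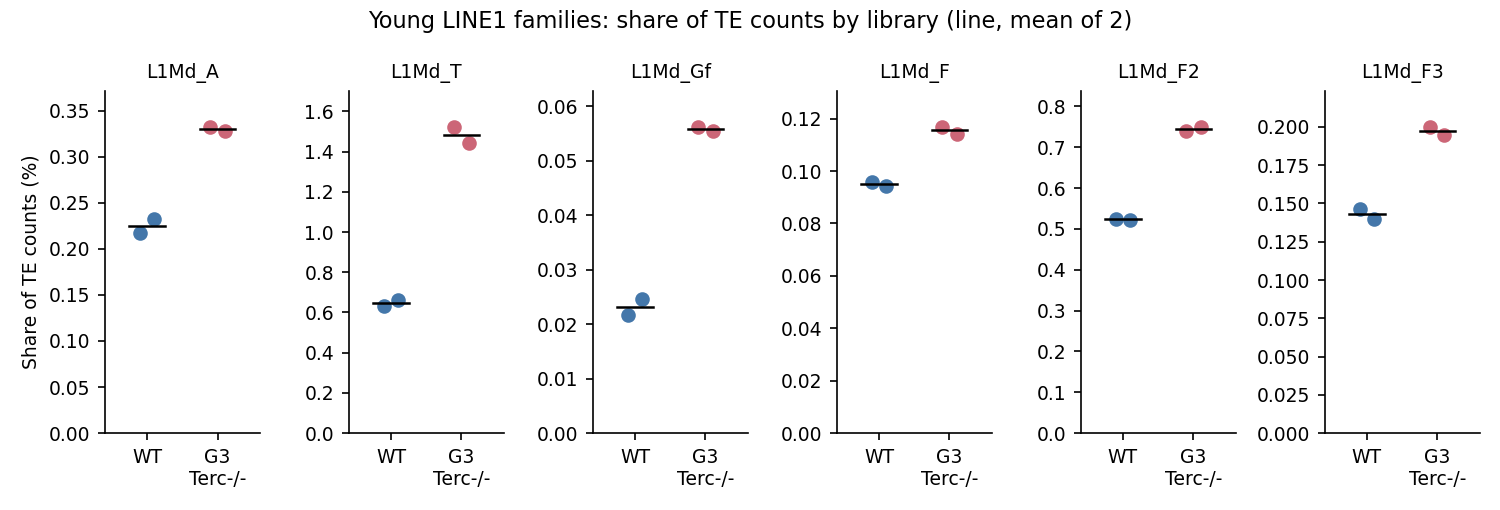
Share of the TE counts of a library (y axis, percent, from 0, with its own scale in each panel) for L1Md_A and 5 other L1Md families in WT (blue) and G3 *Terc*-/- (red) libraries; points are libraries and lines are means of 2. For L1Md_A, the WT libraries sit at 0.218% and 0.232% and the G3 *Terc*-/- libraries at 0.332% and 0.327%, and in all 6 families the genotypes do not overlap.

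The rise was largest in the copies with the fewest counts. The copies were divided into 6 classes by their counts summed over the 4 libraries, which weighs both genotypes alike, and each class was tested as a sum in the table of families. The 3318 copies with 1 to 4 counts, none of which could be tested alone, together had 903 and 993 counts in WT against 1874 and 1675 in G3 *Terc*-/- libraries. This class nearly doubled, with a log2 fold change of 0.96 (SE 0.06, edgeR adjusted p = 7.56e-07). The 306 copies with 5 to 9 counts rose from 350 and 386 to 675 and 512 counts, a log2 fold change of 0.74 (SE 0.09, edgeR adjusted p = 0.000310). The intermediate classes moved less. The log2 fold change was 0.45 for the 159 copies with 10 to 19 counts (edgeR adjusted p = 0.00301) and 0.48 for the 73 copies with 20 to 49 counts (edgeR adjusted p = 0.00167).

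The abundant copies showed the smallest difference. The 18 copies with 50 to 99 counts had 291 and 293 counts in WT against 370 and 267 in G3 *Terc*-/- libraries, so that 1 G3 *Terc*-/- library lay below both WT libraries in raw counts. Their log2 fold change was 0.17 (SE 0.11, edgeR adjusted p = 0.295) and went from 0.03 without G3 *Terc*-/- replicate 1 to 0.30 without G3 *Terc*-/- replicate 2. The 13 copies with 100 or more counts held 41.6% of the counts of the family and had a log2 fold change of 0.25 (SE 0.05, edgeR adjusted p = 0.00348). Copy 2195 alone held 1423 and 1570 of their 2043 and 2248 counts in WT libraries. In G3 *Terc*-/- libraries it held 1854 and 1654 of 2602 and 2322. The value of this class thus rests largely on 1 copy. The difference between the classes was tested with the counts of these 13 copies as the scale, and was not tested without copy 2195. Against the 13 copies, the log2 fold change of the copies with 1 to 4 counts was higher by 0.71 (SE 0.08, edgeR adjusted p = 8.20e-09 over 5 contrasts) and that of the copies with 5 to 9 counts by 0.49 (SE 0.11, adjusted p = 0.000247). For the classes from 10 to 99 counts the contrast lay between -0.08 and 0.22 and did not pass an adjusted p of 0.05.

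Over all TEs, the ratio hardly moved with the number of counts. All TE copies with 1 to 4 counts had a log2 ratio of G3 *Terc*-/- to WT of 0.05 after TMM scaling, and those with 100 or more counts one of -0.08. Scaled by the other TE copies of the same count class, the L1Md_A copies with 1 to 4 counts were higher in G3 *Terc*-/- ESCs by 0.91 (SE 0.08, edgeR adjusted p = 4.99e-26 over 6 classes), and those with 100 or more counts by 0.34 (SE 0.05, adjusted p = 3.86e-05). L1Md_T differed from L1Md_A in its intermediate classes, with log2 ratios between 1.28 and 1.35 in the classes from 1 to 49 counts. The L1Md_T ratio was 1.08 at 50 to 99 counts and 0.66 at 100 or more counts. In L1Md_Gf the ratio went from 1.64 at 1 to 4 counts to 0.89 at 50 to 99 counts. Only 1 L1Md_Gf copy had 100 or more counts, with a ratio of 1.64. In the F families the ratio was lower at 100 or more counts than at 1 to 4 counts, but did not fall steadily. It went from 0.66 to 0.47 in L1Md_F2, with a lowest value of 0.28 between. In L1Md_F3 it went from 0.63 to 0.26, with its highest value of 0.65 at 50 to 99 counts. In L1Md_F it went from 1.10 to 0.02, with its highest value of 1.83 at 10 to 19 counts. Only 7 L1Md_F copies had 100 or more counts. Whether the change with counts differed between families was not tested.

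**Figure D2:**
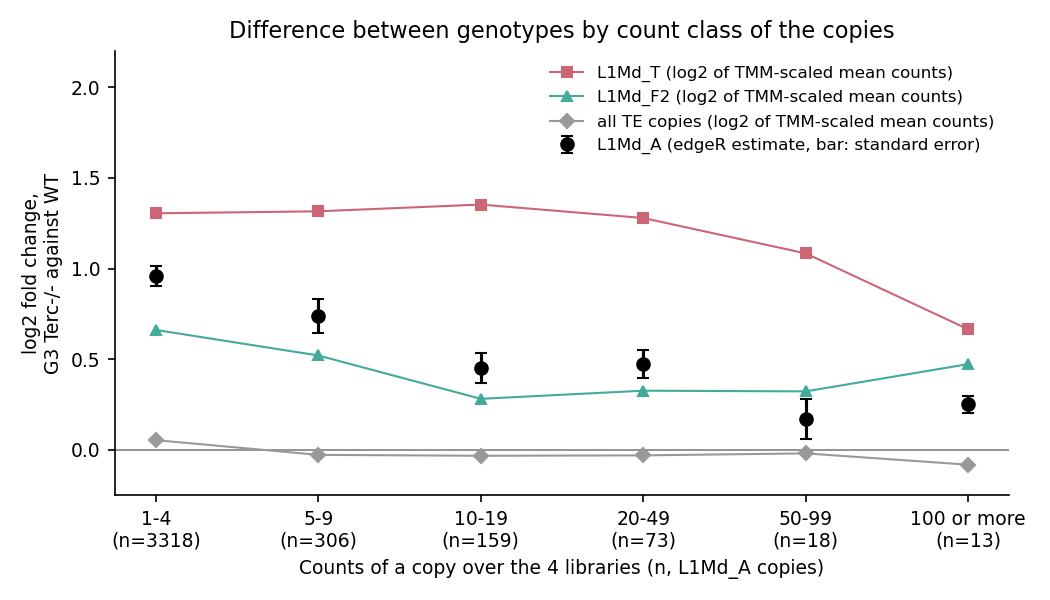
Log2 fold change of G3 *Terc*-/- against WT ESCs (y axis) by the counts of a copy over the 4 libraries (x axis, with the number of L1Md_A copies in each class). Black points are edgeR estimates for L1Md_A with standard errors, and coloured points are log2 ratios of TMM-scaled mean counts for L1Md_T, L1Md_F2 and all TE copies; L1Md_A falls from 0.96 in the class of 1 to 4 counts to 0.25 at 100 or more, while all TE copies stay between -0.08 and 0.05.

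More L1Md_A copies were detected in G3 *Terc*-/- ESCs. At least 1 count was found on 1211 and 1249 copies in the WT libraries and on 2016 and 1813 in the G3 *Terc*-/- libraries. With every library brought to the smallest TE total of 1805047 counts, the expected numbers were 1121 ± 15.7 (SD, n = 2) for WT, against 1831 ± 26.1 (SD, n = 2) in G3 *Terc*-/- ESCs, 1.63 times as many (p = 0.333 by the two-sided exact permutation test, the smallest possible here). Over all TE copies the same ratio was 1.03. The difference in L1Md_A thus exceeded the spread between replicates and that of TEs at large. Only TE totals were made equal, so that these numbers can depend on the higher total of L1Md_A in G3 *Terc*-/- ESCs. At equal depth they were not computed for other families. Over the 4 libraries together, 3887 copies (23.1%) had any count, against 14.6% of all TE copies and 40.5% of L1Md_T copies. The other 12957 copies had none, and 1957 of the detected copies rested on 1 single count.

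Detected copies were divided unequally between the genotypes. Of the 3887 copies, 1897 (48.8%) had counts in G3 *Terc*-/- libraries alone and 866 (22.3%) in WT libraries alone, whereas over all detected TE copies these shares were 27.4% and 26.6%. Both G3 *Terc*-/- libraries but no WT library held counts on 295 copies, 7.59% of those detected, against 3.72% of all detected TE copies. Both WT libraries but no G3 *Terc*-/- library held counts on 77 copies, 1.98% against 3.79%. None of the copies seen in 1 genotype alone was abundant, since the highest had 14 counts in G3 *Terc*-/- and 15 in WT ESCs. All 4 libraries held counts on 276 copies, 7.10% against 20.6% of all detected TE copies. These shares, too, can depend on the L1Md_A counts of a library, and were not computed for other families.

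The counts were also less concentrated in G3 *Terc*-/- ESCs. In each WT library, the 22 most abundant copies of that library held 50% of its L1Md_A counts. In the G3 *Terc*-/- libraries 67 and 60 copies were needed. This did not rest on copy 2195 alone, because without it the numbers were 120 and 122 in WT against 228 and 225 in G3 *Terc*-/- libraries. Such numbers can depend on the L1Md_A counts of a library, which were not made equal here. They were not computed for other families or for all TE copies.

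**Figure D3:**
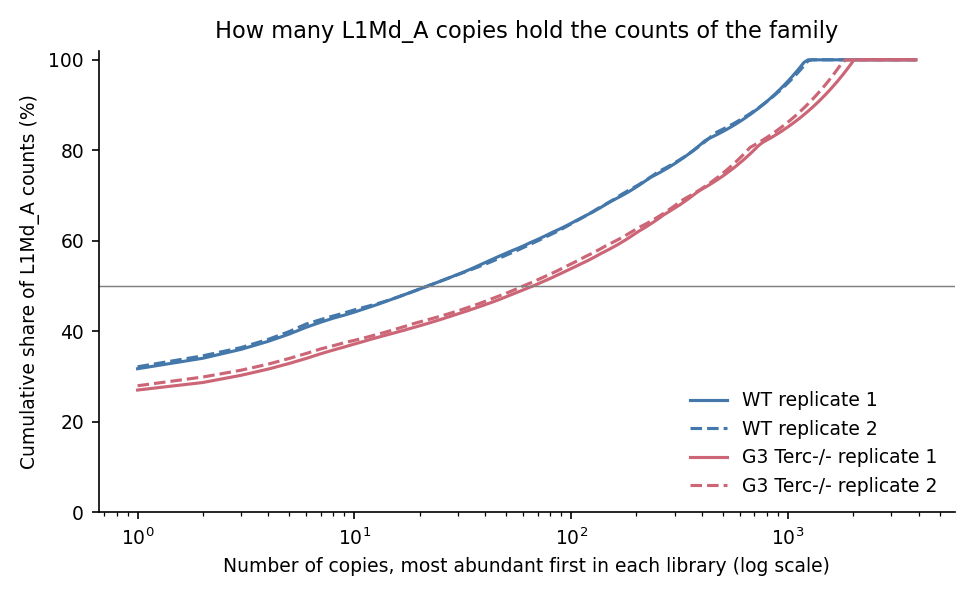
Cumulative share of the L1Md_A counts of a library (y axis, percent) held by its most abundant copies (x axis, number of copies, log scale), 1 curve per library. The WT curves (blue) reach 50% (grey line) at 22 copies and the G3 *Terc*-/- curves (red) at 67 and 60.

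At a fold change of 2 and an unadjusted p-value of 0.05, 75 of the 569 L1Md_A copies tested singly (13.2%) were higher in G3 *Terc*-/- ESCs, where 4.7% of all 176114 tested TE copies were. An excess over all TE copies was not particular to L1Md_A. The share higher was 27.4% in L1Md_T, 22.8% in L1Md_F, 20.6% in L1Md_Gf, 13.3% in L1Md_F3 and 11.3% in L1Md_F2. Lower were 17 L1Md_A copies (2.99%), where 3.87% of all tested TE copies were. With the edgeR p-value adjusted over the whole table, 10 copies remained higher and 2 lower at that fold change, against 0.634% and 0.366% of all copies. The filter itself favours copies that are high in 1 genotype. Of the tested copies 52 had no WT count, among them 31 of the 75, and 11 had no G3 *Terc*-/- count, among them 7 of the 17. The median log2 fold change of the tested copies was 0.63, with quartiles of -0.33 and 1.84, and the median over all tested TE copies was 0.02. The L1Md_A median was also 0.63 with the copies without counts in a genotype set to their bound, for which 3 counts over that genotype were taken. This setting could not move it. The lowest bound of the copies without WT counts, 1.79-fold, still lay above the median, and the copies without G3 *Terc*-/- counts still lay below it. The effect of the filter on the median was not tested. In 215 copies (37.8%) both G3 *Terc*-/- libraries lay above both WT libraries in CPM, where 20.9% of all tested TE copies did so. This share was 63.3% in L1Md_T, 62.9% in L1Md_Gf, 51.1% in L1Md_F, 34.1% in L1Md_F3 and 33.7% in L1Md_F2. In 62 L1Md_A copies (10.9%) both lay below, a smaller share than over all tested TE copies, where 33579 of the 176114 did so.

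Calls depended on how many counts a copy had. Among the 306 tested copies with 5 to 9 counts, 27 (8.82%) were higher and 4 (1.31%) lower at the unadjusted cutoffs, against 3.13% and 2.75% of all TE copies of that class. By adjusted p-value, 0 of the 75370 TE copies of that class passed in edgeR, L1Md_A or not. Among the 73 copies with 20 to 49 counts, 18 (24.7%) were higher and 3 (4.11%) lower, against 7.02% and 5.52% of all TE copies of that class. Among the 18 copies with 50 to 99 counts, 5 (27.8%) were higher and 3 (16.7%) lower, against 7.42% and 5.47% of all TE copies of that class. The 75 higher copies together held 1800 counts and the 17 lower ones 385, of the 22127 counts of the family. At the edge of the filter, the 115 copies with exactly 5 counts, which were tested, had 99 and 115 counts in WT against 213 and 148 in G3 *Terc*-/- libraries. The 205 copies with 4 counts, which were not, had 145 and 142 counts in WT against 299 and 234 in G3 *Terc*-/- libraries.

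**Figure D4:**
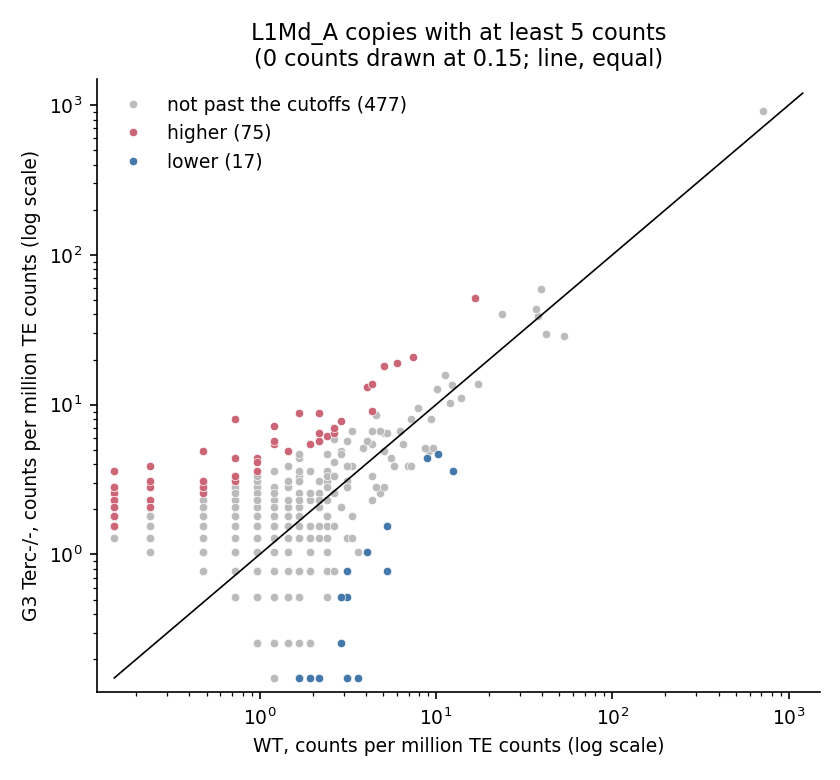
Level of each of the 569 tested L1Md_A copies in WT (x axis) and in G3 *Terc*-/- ESCs (y axis), in CPM of TE counts on log scales, with both libraries of a genotype pooled and copies without counts drawn at the axis; the line marks equal levels. Red points are the 75 copies that were higher and blue points the 17 that were lower at the unadjusted cutoffs, and the isolated point at the upper right is copy 2195.

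The most abundant copies did not move together. Besides copy 2195, the copies among the 10 most abundant held between 111 and 391 counts over the 4 libraries. Copy 16742 rose most clearly, from 30 and 39 counts in WT to 109 and 89 in G3 *Terc*-/- libraries, a log2 fold change of 1.62 (SE 0.22, edgeR adjusted p = 3.31e-07). Each G3 *Terc*-/- library had more than 2 times the counts of either WT library. Copy 3229 had 9 and 22 counts in WT against 38 and 42 in G3 *Terc*-/- libraries, a log2 fold change of 1.47 (edgeR adjusted p = 0.0106) that came to 0.97, under a fold change of 2, without WT replicate 1, and whose unadjusted p rose to 0.121 and 0.147 without G3 *Terc*-/- replicate 1 or 2. Copy 6661 had 79 and 84 counts in WT and 114 in each G3 *Terc*-/- library (log2 fold change 0.59, edgeR adjusted p = 0.0919). Copy 15788 had 50 and 48 counts in WT against 77 and 79 in G3 *Terc*-/- libraries (log2 fold change 0.78, edgeR adjusted p = 0.0507). In both copies the genotypes did not overlap, yet neither reached an adjusted p of 0.05.

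Other abundant copies were lower or differed little. Copy 5091 had 104 and 118 counts in WT against 71 and 40 in G3 *Terc*-/- libraries, and fell by 0.90 in log2 fold change (SE 0.20, edgeR adjusted p = 0.00476). It lay short of a fold change of 2 with all libraries, but came to -1.28 without G3 *Terc*-/- replicate 1 and to -0.62 without G3 *Terc*-/- replicate 2. Copy 16639 had 88 counts in each WT library and 56 and 59 in the G3 *Terc*-/- libraries (log2 fold change -0.51, edgeR adjusted p = 0.330). Both copies were lower in each G3 *Terc*-/- library than in any WT library, against the direction of the family. Copy 6915 had 72 and 82 counts in WT against 94 and 74 in G3 *Terc*-/- libraries, and copy 6285 had 68 and 89 in WT against 85 and 66 in G3 *Terc*-/- libraries. Copy 15768 had 40 and 32 counts in WT against 28 and 25 in G3 *Terc*-/- libraries. Log2 fold changes of these 3 copies lay between -0.34 and 0.23, with adjusted p-values of at least 0.799 from edgeR.

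**Figure D5:**
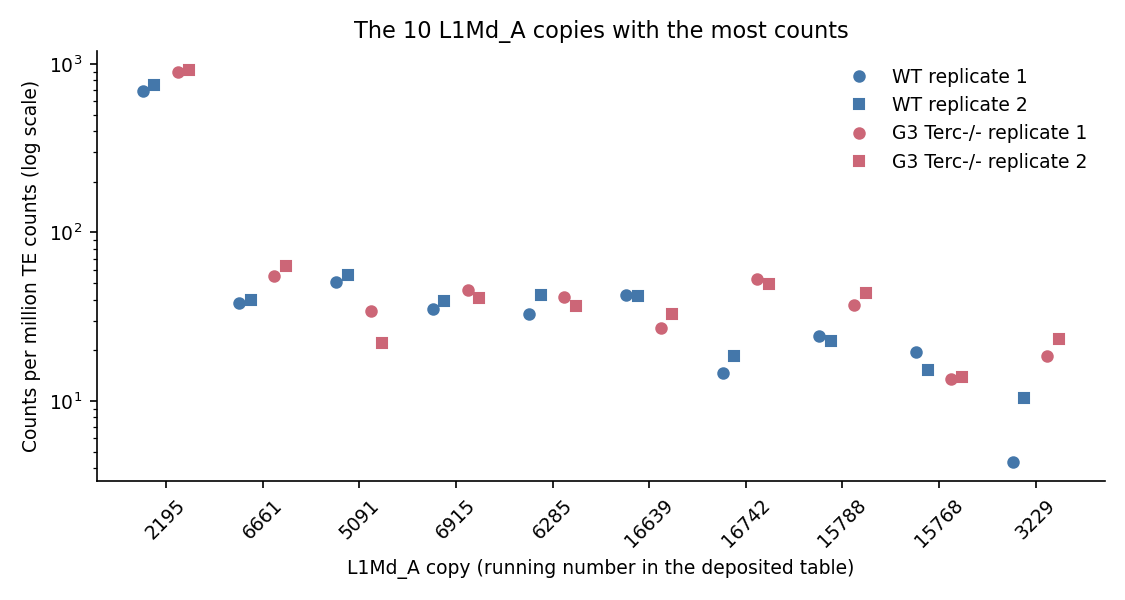
CPM of TE counts (y axis, log scale) of the 10 L1Md_A copies with the most counts (x axis, by running number, in falling order of total counts) in each of the 4 libraries. Copies 16742 and 3229 are higher in both G3 *Terc*-/- libraries (red), copies 5091 and 16639 lower, and copy 2195 stands above all others in every library.

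Among the copies with the smallest p-values, those that rose were mostly of moderate abundance. Copy 15026 went from 11 and 10 counts in WT to 47 and 23 in G3 *Terc*-/- libraries (log2 fold change 1.82, SE 0.39, edgeR adjusted p = 0.00310). Copy 2291 went from 13 and 12 to 44 and 29 counts (log2 fold change 1.63, SE 0.37, edgeR adjusted p = 0.00512). Copy 6320 was nearly silent in WT, with 1 and 2 counts, and had 19 and 12 counts in G3 *Terc*-/- libraries (log2 fold change 3.36, SE 0.74, edgeR adjusted p = 0.00421). These 3 copies and copies 16742 and 3229 were the 5 with the smallest p-values among the higher ones.

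The 5 lower copies with the smallest p-values held between 13 and 66 counts over the 4 libraries. Copy 5092, whose running number follows that of copy 5091, had 29 and 23 counts in WT against 13 and 1 in G3 *Terc*-/- libraries (log2 fold change -1.78, SE 0.49, edgeR adjusted p = 0.0484). It came to -0.97 without G3 *Terc*-/- replicate 2, and DESeq2, with -1.86, did not call it. Copy 13735 had 5 and 10 counts in WT and 0 in both G3 *Terc*-/- libraries, at least 4.65-fold lower against a floor of 3 counts over the genotype (edgeR adjusted p = 0.0351), but its unadjusted p was 0.0636 without G3 *Terc*-/- replicate 1. Copies 5526 and 4878, with 13 WT counts each and 0 in G3 *Terc*-/- libraries, were at least 4.03-fold lower, and copy 16406 had 5 and 17 counts in WT against 1 and 2 in G3 *Terc*-/- libraries. Copy 16406 was not called without WT replicate 2 or either G3 *Terc*-/- replicate. The adjusted p-values of these last 3 copies, 0.0656 to 0.128 from edgeR, did not reach 0.05.

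The rise of L1Md_A was smaller than those of L1Md_T and L1Md_Gf. The log2 ratio of L1Md_A to L1Md_T counts was -1.53 and -1.51 in WT libraries, and -2.20 and -2.14 in G3 *Terc*-/- libraries. Scaled by L1Md_T, L1Md_A was therefore lower in G3 *Terc*-/- ESCs by a log2 difference of -0.65 (SE 0.06, edgeR adjusted p = 9.98e-08 over the 5 families compared). Scaled by L1Md_Gf, whose own counts went from 447 and 519 to 1159 and 999, the difference was -0.72 (SE 0.13, edgeR adjusted p = 7.64e-08). In both contrasts the genotypes did not overlap, and the two-sided exact permutation test of the log2 ratios gave p = 0.333, the smallest possible here. This form of the edgeR test takes the counts of the other family as known without error.

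Against the F families, generally held to be older, the picture was mixed. As a sum over copies, L1Md_A rose more than L1Md_F, by a log2 difference of 0.27 (SE 0.04, edgeR adjusted p = 8.08e-05). The contrast with L1Md_F2 was 0.04 (SE 0.04, edgeR adjusted p = 0.277) and that with L1Md_F3 was 0.09 (SE 0.06, edgeR adjusted p = 0.174). Leaving out 1 library moved them between -0.00604 and 0.0968 for L1Md_F2, and between 0.0113 and 0.166 for L1Md_F3, which passed without WT replicate 2. Single copies weighed on these contrasts, since the most abundant copy of L1Md_F held 36.6% of its counts. With the most abundant copy of each family left out, the L1Md_A sum rose more than those of all 3 F families, by 0.13 over L1Md_F, 0.15 over L1Md_F2 and 0.22 over L1Md_F3 (adjusted p = 0.0139, 0.00467 and 0.00107 from edgeR). It remained below L1Md_T by 0.56 and below L1Md_Gf by 0.61 on the log2 scale. Copies tested singly gave another order for L1Md_F. Their median log2 fold change was 1.34 in L1Md_F, against 0.63 in L1Md_A and 0.46 in both L1Md_F2 and L1Md_F3. At the unadjusted cutoffs, 22.8% of tested L1Md_F copies were higher, against 13.2% of L1Md_A copies.

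Among the 101 tested families whose names start with L1, L1Md_A ranked 6th by log2 fold change and 6th by counts. The families next above it were L1P5 with 20 and 27 counts in WT against 48 and 27 in G3 *Terc*-/- libraries (log2 fold change 0.72, edgeR adjusted p = 0.131), L1MDb (1.01, adjusted p = 0.00633) and L1Md_T (1.15, adjusted p = 1.03e-09). Those next below it were L1VL4 (0.48, edgeR adjusted p = 0.000293), L1Md_F2 (0.46, adjusted p = 5.71e-07) and L1MEj with 97 counts in all (0.44, adjusted p = 0.390). Neither L1P5 nor L1MEj passed by adjusted p-value, although L1P5 passed the cutoffs for families at its unadjusted p of 0.0470 and is counted among the higher families in the next sentence. The median over the 101 families was -0.04, and 5 of them were higher and 2 lower at the cutoffs for families, which 5.13% and 2.94% of all tested families passed.

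Genes known to silence, restrict or bind LINE1 were examined beside the elements. The genes were listed from general knowledge, and 62 were tested. At a fold change of 2 and an unadjusted p-value of 0.05, 1 was higher and 3 lower in G3 *Terc*-/- ESCs, where 4.73% and 3.13% of all 14896 tested genes were. At any size, 11 were higher and 22 lower by adjusted p-value (edgeR), where 21.7% and 21.8% of all genes were. The median log2 fold change of the list was -0.07, against 0.00625 over all genes.

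The 4 genes past these cutoffs have different roles. Dnmt3b, a de novo DNA methyltransferase (GRCm38 chromosome 2, 153649411 to 153687730), showed 11230 and 11596 counts in WT against 5129 and 4405 in G3 *Terc*-/- libraries, and fell by 1.13 on the log2 scale (SE 0.05, edgeR adjusted p = 1.59e-22). Cbx3, which encodes the heterochromatin protein HP1γ, had 3400 and 3708 counts in WT against 1427 and 1318 in G3 *Terc*-/- libraries, and fell by 1.24 (SE 0.06, edgeR adjusted p = 9.09e-21). Cbx3 lies on chromosome 6 of GRCm38 from 51470154 to 51483704, within a stretch from 45 to 80 Mb where the median log2 fold change of 129 tested genes was -0.90. Zc3hav1, the zinc-finger antiviral protein ZAP that binds viral and LINE1 RNA, lies on chromosome 6 from 38305286 to 38355352 and rose from 648 and 664 counts in WT to 1799 and 1458 in G3 *Terc*-/- libraries (log2 fold change 1.43, SE 0.07, edgeR adjusted p = 7.26e-21). Piwil4, a PIWI protein of the germline piRNA pathway, was scarce, with 51 and 55 counts in WT against 19 and 20 in G3 *Terc*-/- libraries, and fell by 1.31 (SE 0.31, edgeR adjusted p = 0.000522).

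Further heterochromatin genes fell by less than a fold change of 2. Atrx, a chromatin remodeler that deposits histone H3.3 in heterochromatin, fell by 0.72 on the log2 scale from 12342 and 12747 counts in WT to 7092 and 6763 in G3 *Terc*-/- libraries (edgeR adjusted p = 4.51e-15). Smchd1, a noncanonical SMC protein of silent chromatin, fell by 0.71 from 3261 and 3331 to 1984 and 1717 counts (edgeR adjusted p = 4.38e-14). Of the 6 listed heterochromatin genes, 5 were lower and 0 higher by adjusted p-value, where 21.8% of all genes were lower, and of the 4 genes of the HUSH complex and its partner Morc2a, 2 were lower and 0 higher. Of 6 genes for H3K9 methylation 2 were lower and 0 higher, and of 5 for DNA methylation 2 were lower and 1 higher. Other roles did not lean downward, apart from HP1 proteins with 2 of 3 lower and RNA-binding and methyl-DNA-binding proteins with 1 lower each. Of 6 corepressors 2 were higher and 1 lower, of 7 restriction factors 3 were higher and 2 lower, of 7 DNA repair genes 2 were higher and 2 lower, and of 3 RNase H2 genes 0 passed in either direction. Trim28, the corepressor KAP1 that recruits H3K9 methylation and is named here after its values were seen, rose by 0.41 on the log2 scale from 35630 and 36215 counts to 49520 and 38403 (edgeR adjusted p = 9.46e-10). The relation between these genes and the L1Md_A counts was not tested.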

How the data were processed

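The authors trimmed the reads (Trim Galore), used STAR with the mm10 build, and deposited counts for genes and for TE copies, not normalized. The tools listed in the labels include featureCounts, and versions and strand setting are not given in the sources used here. The methods name uniquely mapped reads where single TE instances were analysed, and it is not stated whether the deposited copy counts hold only such reads. Copies of a young family are nearly alike, so reads can be lost or split between them.

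Copy counts were summed by repeat name. Fold changes came from edgeR 4.0.16 (R 4.3.3; TMM scaling and quasi-likelihood fits with a term for genotype), fitted on all 917 families and 14896 genes passing filterByExpr and on 176114 copies with at least 5 counts. Cutoffs followed the study, a fold change of 1.5 for families and of 2 for copies and genes at a p-value of 0.05. CPM are per 1000000 TE counts of a library, and symbols and positions are those of RefSeq on GRCm38. Numbers of detected copies at equal depth were computed in closed form. The fits were tested on simulated counts first. Alternatives were DESeq2 1.42.0, other scalings, filters and copy sets, a replicate block, and each library left out.

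The members, the gene lists and the tests were chosen with earlier results of these data known, and the contrasts between count classes after the class values were seen. The text names the 10 most abundant copies, the 5 with the smallest p-values in each direction, the 6 L1Md families, the 3 L1 families on either side of L1Md_A, and the listed genes past the cutoffs or among the 5 smallest p-values. Figures were drawn with matplotlib 3.10.9.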

Additional observations from a re-analysis of the deposited data

How the results depend on the processing

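The family kept its direction and stayed under the cutoff with DESeq2, DESeq2's size factors, no filter and each library left out (0.46 to 0.55 on the log2 scale), and with gene-count scaling (0.57). It passed the 1.5-fold cutoff without copy 2195 (0.59) and for copies with fewer than 5 counts (0.96), and was 0.36 for copies with at least 5. Its share of counts, 0.55 as a log2 ratio, came to 0.61 over gene counts, 0.24 over L1 counts and 0.64 without copy 2195, and detected copies went from 0.71 to 0.64 as observed and 0.78 at 2 or more counts.

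Against L1Md_F2 the contrast lay between -0.00604 (without WT replicate 1) and 0.0968 with 1 library left out, and against L1Md_F3 between 0.0113 and 0.166. Without the most abundant copies they were 0.15 and 0.22.

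The numbers of called copies moved most. The 75 higher and 17 lower copies became 23 and 5 under DESeq2, 17 and 3 with filterByExpr (57 tested), 25 and 6 at 20 or more counts (104 tested) and 10 and 2 by adjusted p-value. With 1 library left out, the lone library being assumed to vary like the others, they lay between 14 (without G3 *Terc*-/- replicate 1) and 49, and between 9 (without WT replicate 2) and 13. The number higher was 21 without G3 *Terc*-/- replicate 2 and 48 without WT replicate 1. The share of higher L1Md_A copies stood least above that of all TE copies without G3 *Terc*-/- replicate 1 (2.46% against 1.65%, with 13 lower) and at 1 or more counts (89 and 16 called, 2.29% against 1.78% higher). A paired fit, with a replicate block, gave 43 and 12 (7.56% against 3.08% higher). Under DESeq2, with filterByExpr and at 20 or more counts, the share of higher copies also exceeded that of all tested TE copies. The share of lower L1Md_A copies was close to that of all tested TE copies in these settings. It lay below under DESeq2 and with filterByExpr, and slightly above at 20 or more counts. Replicate numbers carried little shared deviation over the tested families (correlation -0.0407) and genes (0.0462). The summed feeder markers, however, were higher in replicate 1 than in replicate 2 of each genotype. They came to 269 against 169 CPM in WT and to 307 against 201 CPM in G3 *Terc*-/- libraries. The block moved no other call except the contrast of copies with 20 to 49 against 100 or more counts. This contrast was 0.22 in both fits, and its edgeR adjusted p went from 0.0524 to 0.0357.

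Scaling by another family leaves no place for DESeq2's size factors, which were not run there. Copy 6285 turned to -0.13 without WT replicate 1 and -0.06 without G3 *Terc*-/- replicate 1, and the contrast of copies with 50 to 99 against 100 or more counts lay between -0.24 without G3 *Terc*-/- replicate 1 and 0.0614 without G3 *Terc*-/- replicate 2. Scaled by gene counts, copies with 50 to 99 counts passed (0.24, unadjusted p = 0.0414 from edgeR). Regulators, 1 higher and 3 lower, were 11 and 22 by adjusted p-value with no limit on size. The filters and the adjusted p-value call fewer copies by construction. For DESeq2, the block and the left-out libraries the cause was not tested. Most copies hold under 5 counts, which limits what single copies can show.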
